A study of Mus musculus with 4 samples.

Results

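Genes of the motile cilium axoneme were followed across 4 sections of mouse brain assayed by Visium, in which each spot of the slide captures the polyadenylated RNA of several neighbouring cells. The genes were those whose symbol begins with Cfap, Dnah, Dnaaf, Dnai, Drc, Rsph, Spag or Tekt followed by a digit, together with Foxj1, Ccdc153, Tmem212 and Dynlrb2. Of 32285 genes in the files, 87 symbols met this rule, and 76 of them had at least 30 UMIs (unique molecular identifiers, counted once per captured molecule) over the 4 sections. Spag17, with 31 UMIs, was just inside this minimum and Tekt3, with 25, just outside it. The 11 symbols below the minimum were Tekt3, Cfap99, Dnah3, Dnah2os, Dnah17, Dnah7c, Spag11a and 4 symbols at 0 (Cfap73, Cfap97d1, Spag11b and Spag17os).

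All 4 sections came from brains labelled Nf1+/-, that is, heterozygous for the neurofibromatosis type 1 gene, so no wild-type section was compared. The labels state neither an age nor a treatment, and do not tell if each section is of a different mouse. The 10-µm sections were cut from fresh frozen tissue and permeabilized for 10 min. They are numbered 1 to 4 here only to name them.

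Motile cilia beat because dynein arms on the outer microtubule doublets slide neighbouring doublets against each other. Radial spokes, the nexin link and the central pair of microtubules turn this sliding into bending. In the brain, multiciliated ependymal cells line the ventricles and move cerebrospinal fluid, and the epithelium of the choroid plexus, which secretes that fluid, also carries tufts of cilia. Foxj1, a forkhead transcription factor, and the RFX factors switch on the genes of this apparatus in multiciliated cells.

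Because Foxj1 and RFX factors switch on genes of this apparatus, the bases before the start sites are shown for 5 members that differed in pattern. Tmem212, Ccdc153, Dynlrb2 and Tekt1 were higher in ependymal-marker spots, and Cfap298 did not pass in either marker-spot comparison. The members were picked by symbol, not from a list of Foxj1 or RFX targets, and some, such as Spag9, are not axonemal. RefSeq promoter windows (build GRCm38.p6) were matched by symbol for 64 of the 76 members, and the 250 bases before the start were read 5′ to 3′ on the strand of the gene. Capitals mark GTTGCC, the half-site of the RFX X-box, and TGTTTA, a forkhead core, on either strand. No window was listed for Cfap157, Cfap299, Cfap53, Cfap54, Cfap65, Cfap97, Dnaaf1, Foxj1, Rsph1, Rsph10b, Rsph4a and Spag1.
Tmem212 (chr3:27896369-27896618, minus strand): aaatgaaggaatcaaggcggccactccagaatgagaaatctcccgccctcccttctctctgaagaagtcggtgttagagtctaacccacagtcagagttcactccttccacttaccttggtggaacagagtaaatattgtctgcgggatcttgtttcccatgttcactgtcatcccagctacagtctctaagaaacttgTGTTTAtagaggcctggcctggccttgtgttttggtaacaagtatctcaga
Ccdc153 (chr9:44240427-44240676, plus strand): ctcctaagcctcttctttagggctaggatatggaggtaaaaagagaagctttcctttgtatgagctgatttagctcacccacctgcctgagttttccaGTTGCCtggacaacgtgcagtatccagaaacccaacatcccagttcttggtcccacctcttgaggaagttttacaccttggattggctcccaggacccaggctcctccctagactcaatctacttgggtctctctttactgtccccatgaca
Dynlrb2 (chr8:116504765-116505014, plus strand): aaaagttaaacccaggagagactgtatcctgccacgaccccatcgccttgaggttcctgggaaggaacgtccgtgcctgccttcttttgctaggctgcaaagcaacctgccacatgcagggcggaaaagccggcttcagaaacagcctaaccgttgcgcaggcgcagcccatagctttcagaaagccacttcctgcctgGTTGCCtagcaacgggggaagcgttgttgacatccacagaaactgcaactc
Tekt1 (chr11:72361883-72362132, minus strand): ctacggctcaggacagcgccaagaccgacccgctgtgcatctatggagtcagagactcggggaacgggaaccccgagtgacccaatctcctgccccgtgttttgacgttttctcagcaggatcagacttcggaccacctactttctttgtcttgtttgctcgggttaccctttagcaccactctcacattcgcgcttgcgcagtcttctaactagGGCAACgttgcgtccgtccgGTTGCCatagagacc
Cfap298 (chr16:90934850-90935099, minus strand): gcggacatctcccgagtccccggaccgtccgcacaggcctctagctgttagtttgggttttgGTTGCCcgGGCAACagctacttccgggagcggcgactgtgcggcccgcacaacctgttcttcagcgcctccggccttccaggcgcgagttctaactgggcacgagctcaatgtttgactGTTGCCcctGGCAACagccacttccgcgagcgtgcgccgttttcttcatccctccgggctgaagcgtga

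The letters GTTGCC stood in at least 1 window of 20 of the 64 members (31.2%) and of 3195 of 27025 genes with a window (11.8%). Among members with higher counts in ependymal-marker spots, 11 of 40 held them, against 1 of 6 members classed below as widespread and 8 of 18 other members. Cfap298, one of the widespread members, held them 4 times. Tekt1 has a second window (chr11:72361297-72361546), not printed, that held neither motif. The forkhead letters TGTTTA were found in 12 of the 64 members (18.8%) and in 13.5% of all genes with a window, and the window of Tmem212 held them once. Matches are letters only and were not tested against binding.

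Spots with at least 500 UMIs were grouped by genes that are not members. Ependymal-marker spots had at least 3 of 10 ependyma markers (Mia, Hdc, Fam183b, Enkur, Ak7, Fam216b, Sntn, Pifo, Ccdc113 and Efhb) and fewer than 3 choroid plexus markers. Choroid plexus-marker spots had at least 3 of 10 choroid plexus markers (Otx2, Sostdc1, F5, Prlr, Kl, Folr1, Tmem72, Clic6, Slc4a5 and Kcnj13), whatever their ependyma markers. Of 7620 spots, 113 were ependymal-marker spots, 276 choroid plexus-marker spots and 7231 other spots. Sections 1 to 4 held 25, 47, 28 and 13 of the first and 189, 4, 7 and 76 of the second. Sums of fewer than 20 spots were left out of the tests, so the ependymal comparison rested on sections 1, 2 and 3 and the choroid plexus comparison on sections 1 and 4. The sections held 19261103 to 37001945 UMIs in the spots used, with medians of 8862.5 to 15296.5 per spot, and the members together made up 744 to 828 CPM (UMIs scaled to a total of 1000000) of a section.

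Members of several structural parts of the axoneme were higher in ependymal-marker spots than in other spots of the same sections. With edgeR's quasi-likelihood test on counts summed per section and spot group, 50 of the 70 members tested rose and none fell (adjusted p under 0.05), beside 4.66% of 13553 genes that rose and 2.69% that fell. No member was lower at an unadjusted p under 0.05 either, and DESeq2 also called 50 higher and 0 lower. Of the 50, 49 were at least 2-fold higher, 43 at least 4-fold and 24 at least 16-fold, and 45 were higher in each of the 3 sections. The exceptions, Cfap53, Cfap57, Dnah11, Dnah12 and Rsph14, had no UMI in the ependymal-marker spots of section 1. These 3 sections were the ones that gave the calls, so the fold sizes and the shared direction are no separate check. Of all 76 members, called or not, 51 were higher in each of the 3 sections. Without section 2 the count of 50 became 28 and without section 3 it became 31, and the members still tested all kept a positive fold change. Of the 70 members tested, 42 passed the filter on low counts only with the help of the marker-spot sums, and such genes had to differ, so their count carries no weight as evidence. Among the 28 members that passed it in other spots alone, 14 were called higher in ependymal-marker spots. They were Tmem212, Dynlrb2, Foxj1, Dnah1, Dnah7a, Rsph1, Rsph3b, Rsph9, Rsph10b, Drc3, Cfap69, Spag6l, Tekt1 and Cfap20. No outer arm heavy chain, arm assembly factor or tether and ruler member was among them. The counts by role below hold both kinds of member. Spag17, Cfap47, Dnah7b, Dnah8, Rsph6a and Cfap58 did not pass the filter and were not tested. Fewer ciliated cells in a spot and less RNA per ciliated cell cannot be told apart in such sums.

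**Figure D1:**
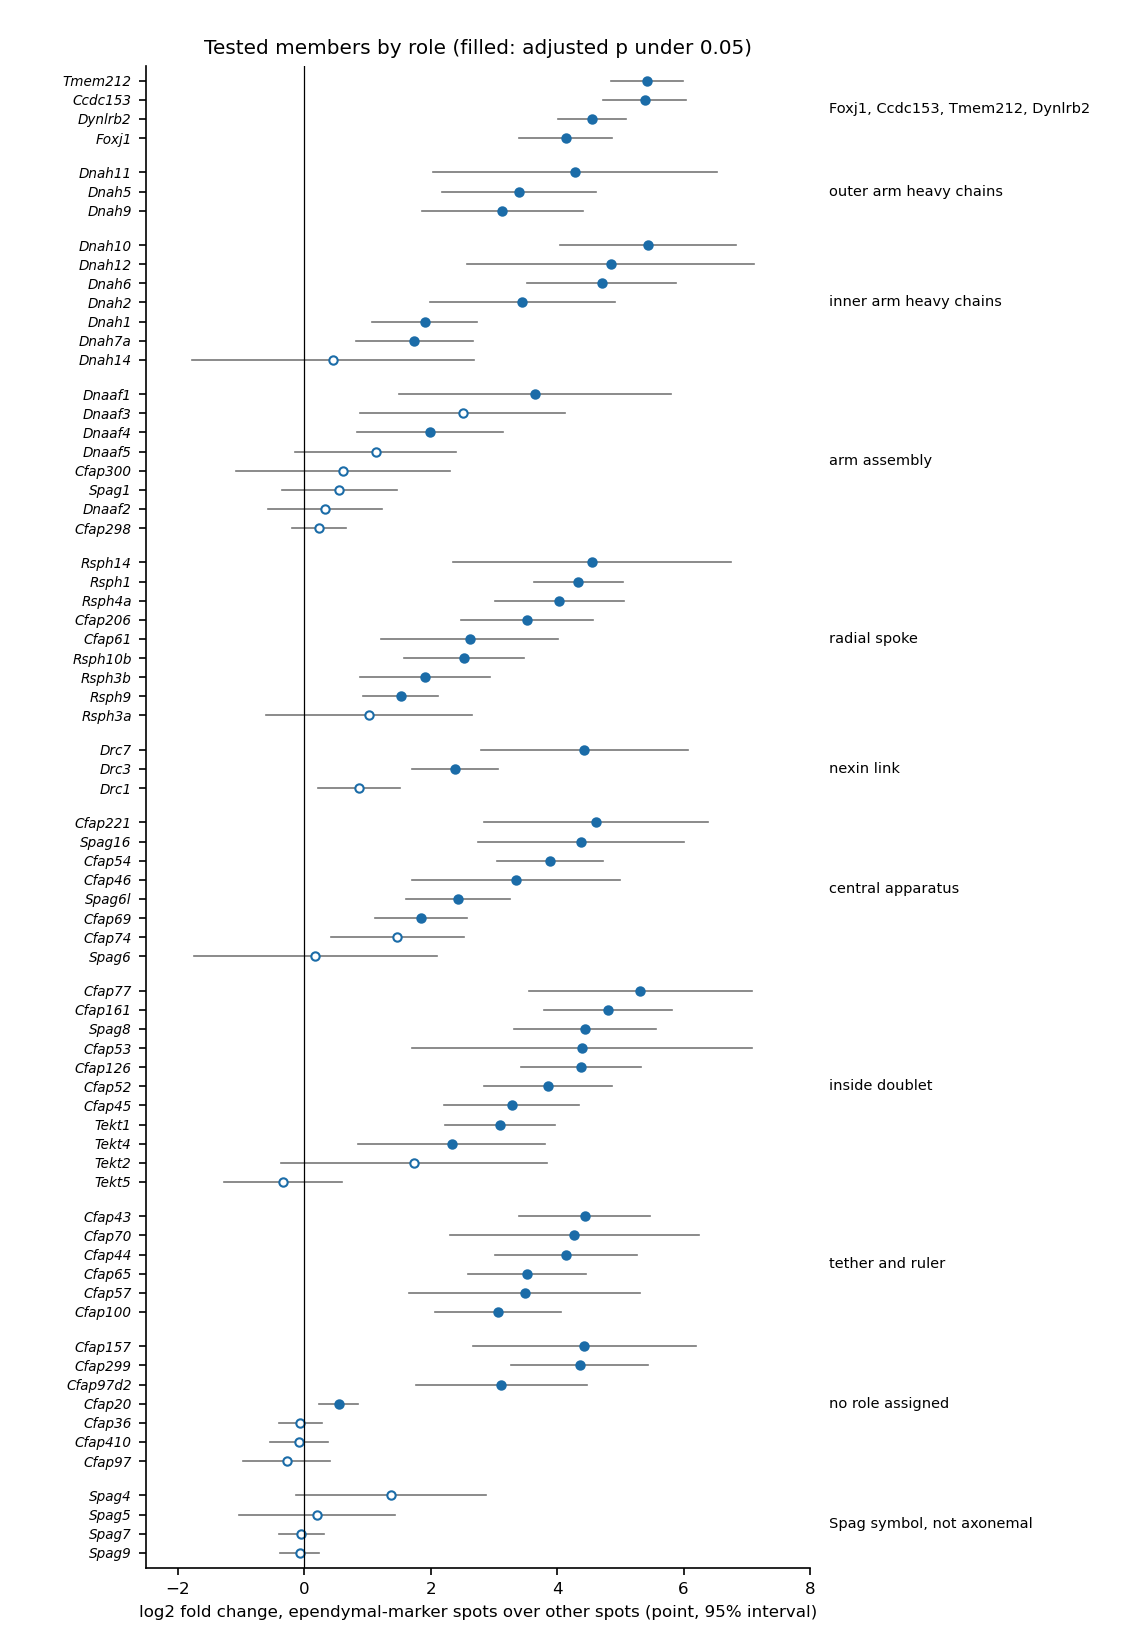
Log2 fold change of each tested member between ependymal-marker spots and other spots (horizontal axis, point and approximate 95% interval derived from edgeR's F statistic), grouped by role and ordered by size within a role. Filled points had an adjusted p under 0.05: 50 of 70 members, all to the right of 0, while Spag7, Spag9, Cfap36, Cfap410 and Cfap97 lie close to 0 and Spag4 has a wide interval.

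The 4 members chosen as single genes were among the clearest. Tmem212 (ENSMUSG00000043164), a transmembrane protein gene used as an ependymal marker, stood at 105, 140 and 277 CPM in the ependymal-marker spots of sections 1, 2 and 3 and at 4.56, 3.04, 3.18 and 1.46 CPM in the other spots of sections 1 to 4. The groups did not overlap, and the fitted difference was 5.42 ± 0.27 (log2 fold change ± SE, edgeR, adjusted p = 1.25e-11, n = 3 sections). The 13 ependymal-marker spots of section 4, outside the fit, held Tmem212 at 47.3 CPM. Of the 50 members called, 36 were higher in these spots than in other spots of section 4, and 14 had no UMI in them.

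Ccdc153 (ENSMUSG00000070306), a coiled-coil protein of the nexin link, stood at 55.0, 117 and 309 CPM in ependymal-marker spots and at 1.08 to 3.73 CPM in other spots. It differed by 5.39 ± 0.32 on the log2 scale (edgeR, adjusted p = 1.11e-10). Unlike the other single genes, Ccdc153 passed the filter on low counts only with the help of marker-spot sums, so its call carries no weight as evidence. Dynlrb2 (ENSMUSG00000034467), a dynein light chain of the roadblock type, stood at 62.2, 101 and 142 CPM against 2.97 to 4.42 CPM, a log2 difference of 4.55 ± 0.26 (edgeR, adjusted p = 7.3e-11). Foxj1 (ENSMUSG00000034227) itself stood at 28.7, 71.7 and 130 CPM against 2.86 to 4.82 CPM, a log2 difference of 4.13 ± 0.35 (edgeR, adjusted p = 4.57e-08). In all of them section 3 was the highest and section 1 the lowest of the 3 sections, and no ependymal-marker value reached down to the other spots.

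**Figure D2:**
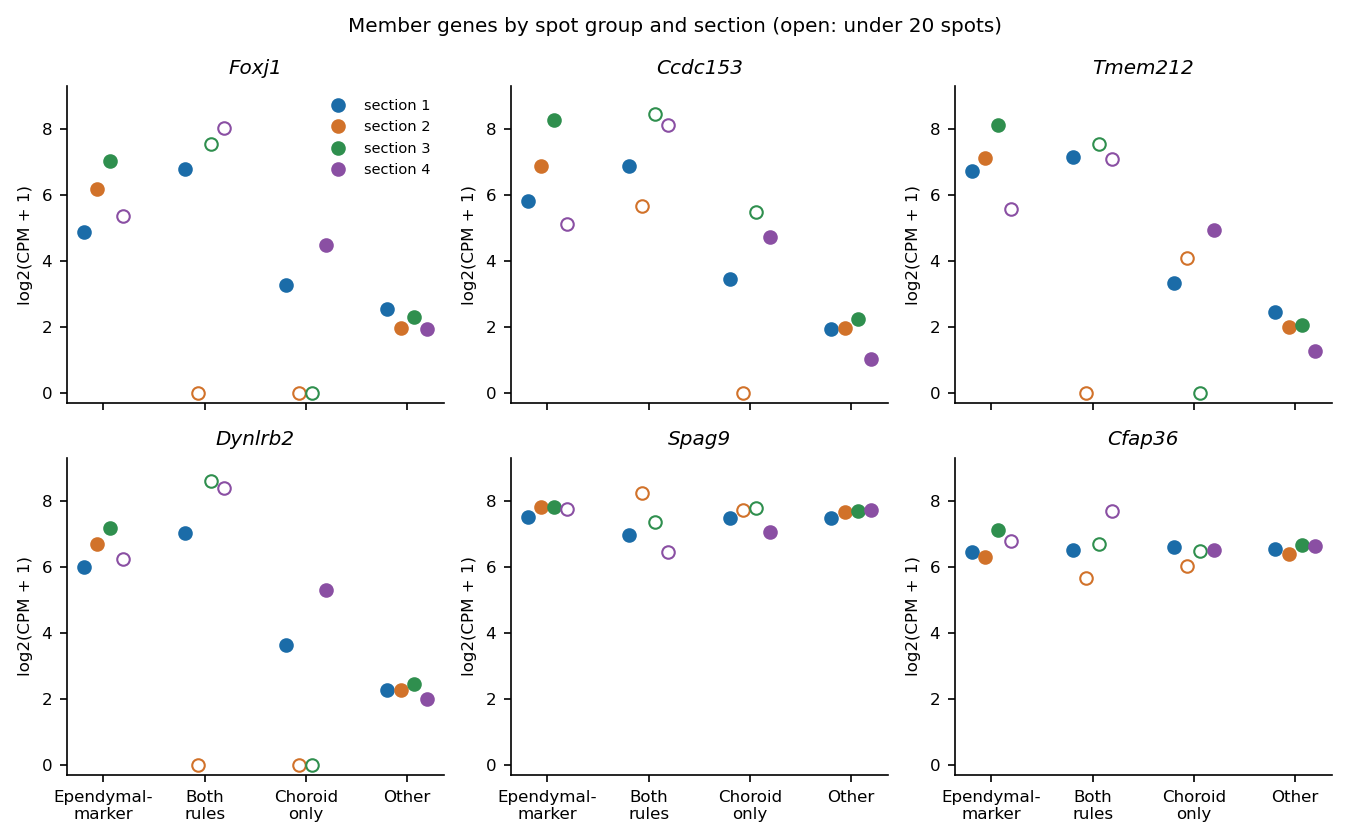
Level of 6 members as log2(CPM + 1) in ependymal-marker spots, spots that met both marker rules, choroid plexus-marker spots below the ependyma rule, and other spots; each point is the sum over the spots of 1 section, open where there were under 20 spots. Foxj1, Ccdc153, Tmem212 and Dynlrb2 were high in the first 2 groups apart from the single both-rule spot of section 2, intermediate in choroid-only spots of sections 1 and 4 and low in other spots, whereas Spag9 and Cfap36 varied little.

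Among the heavy chains of the outer dynein arm, which carries most of the force of the beat, all 3 tested members rose. All 3 passed the filter on low counts only with the help of marker-spot sums, so this count carries no weight as evidence. Dnah5 stood at 7.18, 14.1 and 20.3 CPM in ependymal-marker spots of sections 1 to 3 and at 0.968 to 1.84 CPM in other spots (log2 fold change 3.397 ± 0.59, edgeR, adjusted p = 0.000493). Dnah9 stood at 11.96, 6.41 and 28.5 CPM against 1.13 to 1.93 CPM. Dnah11 was at 0 in section 1, where no UMI was counted, and at 5.12 and 12.2 CPM in sections 2 and 3, so its rise was carried by 2 of the 3 sections.

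Of the inner arm heavy chains, which shape the bend, 6 of 7 tested rose, and they differed among themselves. Among these 6, only Dnah1 and Dnah7a passed the filter on low counts in other spots alone, so the calls of the rest, Dnah10 included, carry no weight as evidence. Dnah10 had the largest fold change of all members called (5.43 ± 0.67, edgeR, adjusted p = 8.89e-06), with 4.79, 19.2 and 77.3 CPM in ependymal-marker spots and 0.216 to 0.659 CPM in other spots, so it varied widely between sections within the ependymal-marker spots. Dnah6 stood at 16.8, 16.7 and 40.7 CPM against 0.432 to 1.22 CPM. Dnah1 and Dnah7a were also counted in other spots, at 5.83 to 10.0 CPM and 3.24 to 4.89 CPM, and had smaller fold changes, 1.90 ± 0.40 and 1.74 ± 0.44 (log2, edgeR, adjusted p = 0.0035 and 0.0163). Reads of Dnah7a may be shared with its near copies Dnah7b and Dnah7c. The exception, Dnah14, had 3 UMIs in these spots (log2 fold change 0.45, 95% interval -1.78 to 2.68), so its change could not be resolved.

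The factors that assemble dynein arms in the cytoplasm, before they enter the cilium, mostly did not pass. Only Dnaaf1 and Dnaaf4 of the 8 tested rose, and their number cannot be set against that of the arms: 4 of the 8 (Dnaaf2, Dnaaf5, Spag1 and Cfap298) passed the filter on low counts in other spots, whereas Dnah5, Dnah9 and Dnah11 passed it only through marker spots. The assembly factors with the most UMIs were Cfap298, Dnaaf2 and Spag1. Cfap298 stood at 40.7, 80.7 and 77.3 CPM in ependymal-marker spots and at 47.0 to 55.1 CPM in other spots, so the groups overlapped (log2 fold change 0.24, 95% interval -0.19 to 0.67). Dnaaf2 stood at 4.79, 12.8 and 16.3 CPM against 6.69 to 8.99 CPM, and Spag1 at 4.79, 15.4 and 12.2 CPM against 6.04 to 7.64 CPM, also overlapping. Dnaaf1 had the largest fold change of the 8 (3.65 ± 1.04) but rested on 7 UMIs in these spots.

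Radial spoke genes rose in 8 of 9 tested. Among these 8, only Rsph1, Rsph3b, Rsph9 and Rsph10b passed the filter on low counts in other spots alone. Rsph1, of the spoke head, stood at 52.6, 98.6 and 260 CPM against 3.78 to 7.05 CPM (4.33 ± 0.34, edgeR, adjusted p = 1.09e-08). Rsph9, also of the head, was far less selective: 38.3, 49.96 and 65.1 CPM stood against 13.1 to 18.8 CPM (1.53 ± 0.29, edgeR, adjusted p = 0.00121). Rsph10b lay between them (2.53 ± 0.46). Rsph3a (1.02, 95% interval -0.61 to 2.65) did not pass, and its reads may be shared with its near copy Rsph3b, which did (1.90 ± 0.50).

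In the nexin link, which ties neighbouring doublets together, Drc3 stood at 23.9, 34.6 and 44.7 CPM against 5.85 to 6.09 CPM (2.38 ± 0.33, edgeR, adjusted p = 3.7e-05), and Drc7 rose by 4.43 ± 0.79. Drc1, the scaffold of the complex, stood at 16.8, 23.1 and 32.5 CPM against 10.6 to 11.8 CPM; every ependymal-marker value was the higher, but the difference of 0.87 ± 0.31 had an adjusted p of 0.1003 (edgeR). Drc7 passed the filter on low counts only with the help of marker-spot sums. In the central apparatus, 6 of 8 tested rose. Among these 6, only Cfap69 and Spag6l passed that filter in other spots alone, as did Cfap74 and Spag6, which were not called. Spag6l stood at 9.57, 32.0 and 52.9 CPM against 2.65 to 5.35 CPM (2.43 ± 0.40), and Cfap69 at 11.96, 35.9 and 65.1 CPM against 8.20 to 9.503 CPM (1.85 ± 0.35). Cfap74 had a log2 fold change of 1.47 ± 0.51 with an adjusted p of 0.0838 (edgeR). Spag6, a near copy of Spag6l whose reads may be shared with it, had 4.79, 2.56 and 0 CPM in ependymal-marker spots and 1.01 to 4.16 CPM in other spots, which overlapped.

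Of the proteins inside the doublet microtubules, 9 of 11 tested rose. Among these 9, only Tekt1 passed the filter on low counts in other spots alone. Tekt1, a tektin filament protein, stood at 23.9, 17.9 and 81.3 CPM against 3.09 to 4.10 CPM (3.10 ± 0.42, edgeR, adjusted p = 2.86e-05). Cfap126 stood at 28.7, 41.0 and 52.9 CPM against 0.918 to 2.69 CPM (4.38 ± 0.46). Tekt5, a tektin known from sperm flagella, did not rise: 21.5, 2.56 and 8.13 CPM overlapped with 7.36 to 13.8 CPM in other spots (-0.34, 95% interval -1.27 to 0.59), on 13 UMIs. All 6 tested members of the group listed here as tether and ruler rose, among them Cfap43 of the dynein tether (4.43 ± 0.50), Cfap65 (3.52 ± 0.45) and Cfap100 (3.07 ± 0.48). The list was drawn up for this comparison, and the place of Cfap65 or Cfap70 in the axoneme was not tested. These 6 passed the filter on low counts only with the help of marker-spot sums, so their count carries no weight as evidence.

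The ependymal-marker rule itself uses 8 markers that belong to the cilium, so the comparison was repeated with spots picked by Mia and Hdc alone, which do not. Section 3 had 19 of these spots and gave no sum, while section 4 had 25. This comparison thus rested on sections 1, 2 and 4, not on 1, 2 and 3. Of 68 members tested there, 17 rose and none fell, beside 0.955% of genes tested that rose. The markers and the sections changed together, so their parts in the lower count cannot be told apart. These 17 were all among the 50, and all 48 of the 50 that could be tested kept a positive fold change. None of 3 outer arm heavy chains, 3 nexin link members or 8 assembly factors rose there. Of the other parts, 2 of 6 inner arm heavy chains, 2 of 9 radial spoke and 1 of 9 central apparatus members rose. So did 5 of 10 doublet and 2 of 6 tether and ruler members, and the 4 single genes. How many of these passed the filter on low counts in other spots alone was not counted. In the comparison by all 10 markers, no tether and ruler member did. Of the doublet members called there, only Tekt1 did. The counts by role here are therefore given no weight as evidence. Tmem212 differed by 4.40, Ccdc153 by 4.65, Dynlrb2 by 3.91 and Foxj1 by 3.23 on the log2 scale in these spots. Tekt1 had 1.43 there and did not pass (adjusted p = 0.233, edgeR).

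Genes listed as markers of other cells moved with the same spots, and which cells of a spot held them cannot be told from sums. Of 8 neuroblast markers, 5 rose in ependymal-marker spots (median log2 fold change 1.94), with a summed level of 519 to 826 CPM in sections 1 to 3 against 362 to 446 CPM in other spots and none of the 8 at 0. Of 8 neuron markers, 4 fell, and of 8 astrocyte markers, 3 rose (largest log2 fold change 1.28). The 10 choroid plexus markers summed to 33.3 to 110 CPM in the ependymal-marker spots of sections 1 to 3 against 15.1 to 55.1 CPM in other spots, and 2 of them rose. With ependymal-marker spots that held no choroid plexus marker at all, the 50 members were again all higher, and 15 of them passed, beside 0.675% of genes. Only section 2 then had 20 or more such spots (31), so this comparison rested on 1 ependymal sum, assumed to vary like the other sums. The part of neuroblast, neuron and astrocyte markers in the differences was not tested.

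In choroid plexus-marker spots, 41 of the 70 members tested rose and none fell (edgeR, adjusted p under 0.05), beside 5.73% of genes that rose and 1.51% that fell. Spag9 alone was lower at an unadjusted p under 0.05 (log2 fold change -0.36), and it passed where at least 5 choroid plexus markers were asked for (-0.71 ± 0.19, adjusted p = 0.00837) and without section 1 (-0.75 ± 0.24, adjusted p = 0.0171, both edgeR), where the sum of section 4 stood alone and was assumed to vary like the other groups. DESeq2 called 44 higher and 0 lower. Among the 28 members that passed the filter in other spots alone, 10 were called; the rest of the 41 passed it only through marker-spot sums. All 41 were higher in both sections 1 and 4, the sections that gave the calls, as were 58 of all 76 members. Of the 41, 40 were also called in ependymal-marker spots, and both comparisons share the other spots as control. The one member called in choroid plexus-marker spots alone was Dnaaf3 (2.88 ± 0.72, edgeR, adjusted p = 0.0129), whose value in ependymal-marker spots was 2.51 ± 0.78 (adjusted p = 0.0529). Among the single genes, Foxj1 stood at 43.7 and 72.5 CPM in sections 1 and 4 (log2 fold change 4.02 ± 0.35), Ccdc153 at 46.7 and 79.3 CPM (5.04 ± 0.35), Tmem212 at 54.5 and 52.3 CPM (4.32 ± 0.31) and Dynlrb2 at 51.8 and 101 CPM (4.43 ± 0.26). Dnah11, at 6.29 and 13.5 CPM, had the largest fold change of the members there (5.33 ± 0.80, edgeR, adjusted p = 8.9e-05). Dnah11, Dnaaf3 and Ccdc153 passed the filter on low counts only with the help of marker-spot sums, so their calls carry no weight as evidence.

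Genes listed as markers of other cells moved with these spots as well, again without telling which cells held them. Of 7 fibroblast markers tested, 3 rose (largest log2 fold change 3.62), and the list summed to 176 and 417 CPM in sections 1 and 4 against 54.9 and 32.0 CPM in other spots, with no gene at 0. Of 8 neuroblast markers, 4 rose, and of 8 neuron markers, 6 fell. Their part in the members' values was not tested.

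Within the choroid plexus-marker spots, levels of Foxj1, Rsph1 and Tekt1 were highest in those that met both marker rules. Such spots were 68 of the 189 choroid plexus-marker spots of section 1 and 18 of the 76 of section 4. Foxj1 stood at 110 and 261 CPM in them, but at 8.71 and 21.4 CPM in the choroid plexus-marker spots below the ependyma rule and at 4.82 and 2.86 CPM in the other spots of the same sections. Rsph1 stood at 153 and 348 CPM, then 11.9 and 49.3 CPM, then 7.05 and 3.78 CPM in the same order. Tekt1 stood at 61.4 and 71.2 CPM in spots that met both rules, at 2.75 and 23.6 CPM in those of the choroid plexus rule alone and at 3.30 and 3.67 CPM in other spots, so in section 1 the last groups did not separate. Drc7 did not follow this order in section 4. It stood there at 23.7 CPM in spots that met both rules and at 27.9 CPM in those below the ependyma rule. These values rest on few UMIs, since the whole of section 4 held 25 of Drc7.

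Without the spots that also met the ependyma rule, 2 of 65 members rose, Dynlrb2 (2.58 ± 0.44, edgeR, adjusted p = 0.0167) and Ccdc153 (3.003 ± 0.57, adjusted p = 0.0363), beside 0.16% of genes. With smaller sums the CPM minimum was higher here, and Dynlrb2 and Ccdc153 passed it only with the help of marker-spot sums. Their calls here therefore carry no weight as evidence. Leaving out spots by ependyma markers, most of which are cilium genes, favours lower values of the members in what remains. The lower count therefore does not tell which cells held their RNA. Foxj1 had 1.90 ± 0.57 there (adjusted p = 0.337) and Tmem212 2.39 ± 0.60 (adjusted p = 0.191). Of the 41 members called before, 36 were still higher in both sections, as were 48 of all 76 members. The spots that remained held the 10 ependyma markers at a summed 53.2 and 150 CPM, above 31.3 and 23.8 CPM in other spots, with 2 and 3 of the 10 at 0. Where choroid plexus-marker and other spots were held to no ependyma marker at all, none of 45 members passed in edgeR, and 4 were higher at an unadjusted p under 0.05. No gene of the 10789 tested passed there either (0%), and the median log2 fold change was 1.03 over the members, 1.90 over the single genes and -0.00 over all genes.

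**Figure D3:**
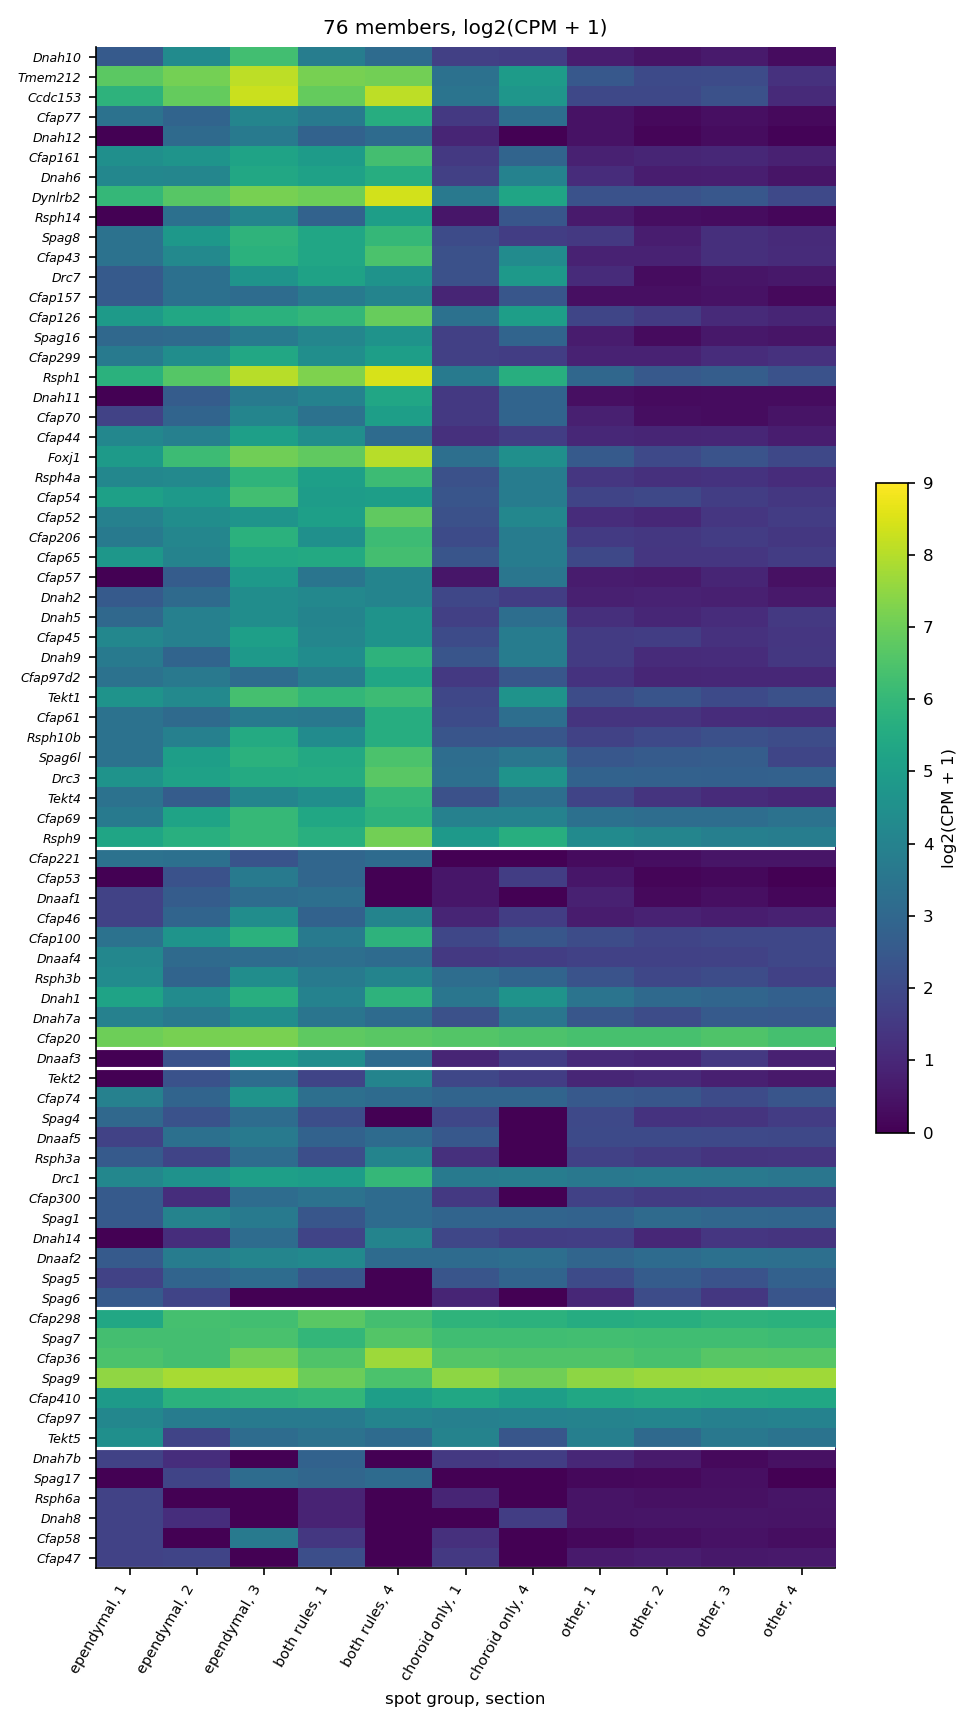
Level of all 76 members (rows) as log2(CPM + 1) in each spot group and section (columns), with white lines between members called in both comparisons, in ependymal-marker spots alone, in choroid plexus-marker spots alone, undetermined, widespread, and not tested. In the top block the ependymal-marker and both-rule columns are bright and the other columns dark, with choroid-only columns between, while in the widespread block a row changes little in colour, Tekt5 apart.

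Set directly against each other, ependymal-marker and choroid plexus-marker spots did not differ in any member after adjustment: 0 of 70 passed in edgeR and 0 in DESeq2, beside 0.303% of genes in either direction. At an unadjusted p under 0.05, 3 members were higher in ependymal-marker spots in edgeR and 2 in DESeq2. The 3 were Tmem212 (log2 difference 1.10, 95% interval 0.36 to 1.84), Cfap100 (1.37, 0.03 to 2.71) and Cfap54, the last named after its value was seen. The comparison was weak, since only section 1 held both kinds of sum. The interval reached beyond a 2-fold difference in 1 direction or the other for 59 of the 70. For Dynlrb2 it ran from -0.53 to 0.78 and for Foxj1 from -0.78 to 1.00, and for Dnah11 it ran from -3.30 to 1.22. With at least 2 rather than 3 ependyma markers, all 4 sections gave an ependymal sum, so section 4 also held both kinds. Of the members, 3 were then lower in ependymal-marker spots, beside 1.83% of genes. They were Dynlrb2 (-1.69), Cfap52 (-1.73) and Foxj1 (-1.56). When spots that met both rules were counted as ependymal, 8 members were higher in ependymal-marker spots than in the remaining choroid plexus-marker spots, beside 0.552% of genes; that split sorts spots by a rule in which 8 of the 10 markers are cilium genes. They were Foxj1 (3.18), Tmem212 (3.27), Ccdc153 (3.07), Dynlrb2 (2.80), Rsph1 (2.81), Cfap65 (2.59), Cfap161 (3.31) and Spag8 (3.80, all log2 differences).

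A further group of 7 members was widespread, meaning that it was called in neither comparison and that the upper end of the 95% interval in ependymal-marker spots lay below a 2-fold rise. They were Spag9, Cfap36, Spag7, Cfap298, Cfap410, Cfap97 and Tekt5. Spag9 encodes a scaffold of JNK signalling and axonal transport rather than an axonemal protein. It had the most UMIs of any member, 19865, and stood at 179, 224 and 224 CPM in ependymal-marker spots and at 175 to 207 CPM in other spots (log2 fold change -0.08, 95% interval -0.38 to 0.23). In choroid plexus-marker spots Spag9 stood at 158 and 123 CPM in sections 1 and 4. Cfap36 stood at 86.1, 78.1 and 138 CPM against 82.3 to 99.8 CPM (-0.06, -0.40 to 0.28). Spag7 stood at 79.0, 78.1 and 85.4 CPM against 71.5 to 76.9 CPM (-0.05, -0.40 to 0.31), Cfap410 at 28.7, 52.5 and 56.9 CPM against 40.2 to 44.6 CPM (-0.08, -0.54 to 0.38), and Cfap97 at 16.8, 12.8 and 12.2 CPM against 14.0 to 16.05 CPM (-0.28, -0.97 to 0.41). Among these 5 the groups overlapped except in Spag7, whose 3 ependymal-marker values were each slightly above the other spots. With total-UMI scaling in place of TMM, the median over all genes in this comparison moved from -0.02 to 0.12 and the fold changes of Spag9, Spag7, Cfap36 and Cfap410 turned to 0.07, 0.10, 0.09 and 0.06, all at or below that median. Cfap298 was not even under every rule: in spots with at least 5 ependyma markers, small sums kept, it was 1.07 higher (log2, edgeR, adjusted p = 0.0249), and with spots that met both rules counted as ependymal it was 0.59 higher (adjusted p = 0.00894).

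Cfap20, a protein of the doublet junction, was the smallest change called. It stood at 127, 141 and 146 CPM in ependymal-marker spots and at 80.8 to 90.9 CPM in other spots, without overlap, a difference of 0.54 ± 0.15 on the log2 scale (edgeR, adjusted p = 0.0273). Its call depended on the settings. With at least 2 ependyma markers the difference was 0.10 (adjusted p = 0.686), with Mia and Hdc alone 0.38 (0.398), with no choroid plexus marker in the spots 0.61 (0.875), or 0.37 (0.708) with small sums kept, and with at least 2 choroid plexus markers 0.45 (0.148). It was 0.48 without section 2 (0.309), 0.58 without section 3 (0.117) and 0.48 with no filter on low counts (0.0689). Spag5, a protein of the mitotic spindle, and the remaining 11 undetermined members did not pass and had intervals that reached past a 2-fold rise (for Spag5, -1.04 to 1.43).

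Levels were also followed against the number of ependyma markers in a spot, choroid plexus-marker spots left out, as a description with no test, since 8 of the 10 markers are cilium genes themselves. In section 2, Tmem212 stood at 2.00, 3.72, 10.7, 19.4, 213 and 424 CPM in spots with 0, 1, 2, 3, 4 and at least 5 of the 10 markers. Foxj1 in the same bins stood at 2.495, 3.31, 6.17, 25.3, 122 and 174 CPM. Spag9 also stood in rising order from 0 to 4 markers there, at 196, 204, 212, 226 and 304 CPM, though over a much narrower range, and was at 194 CPM with at least 5. In section 3 it stood at 202, 211, 196, 227, 139 and 232 CPM, without that order. The bins of 4 and of at least 5 markers were small, 5 and 14 spots in section 2. In spots with 3 markers, section 1 had no Foxj1 UMI in its 13 spots, and the single spot with at least 5 markers in section 4 had none of Foxj1, Ccdc153, Tmem212 or Dynlrb2.

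**Figure D4:**
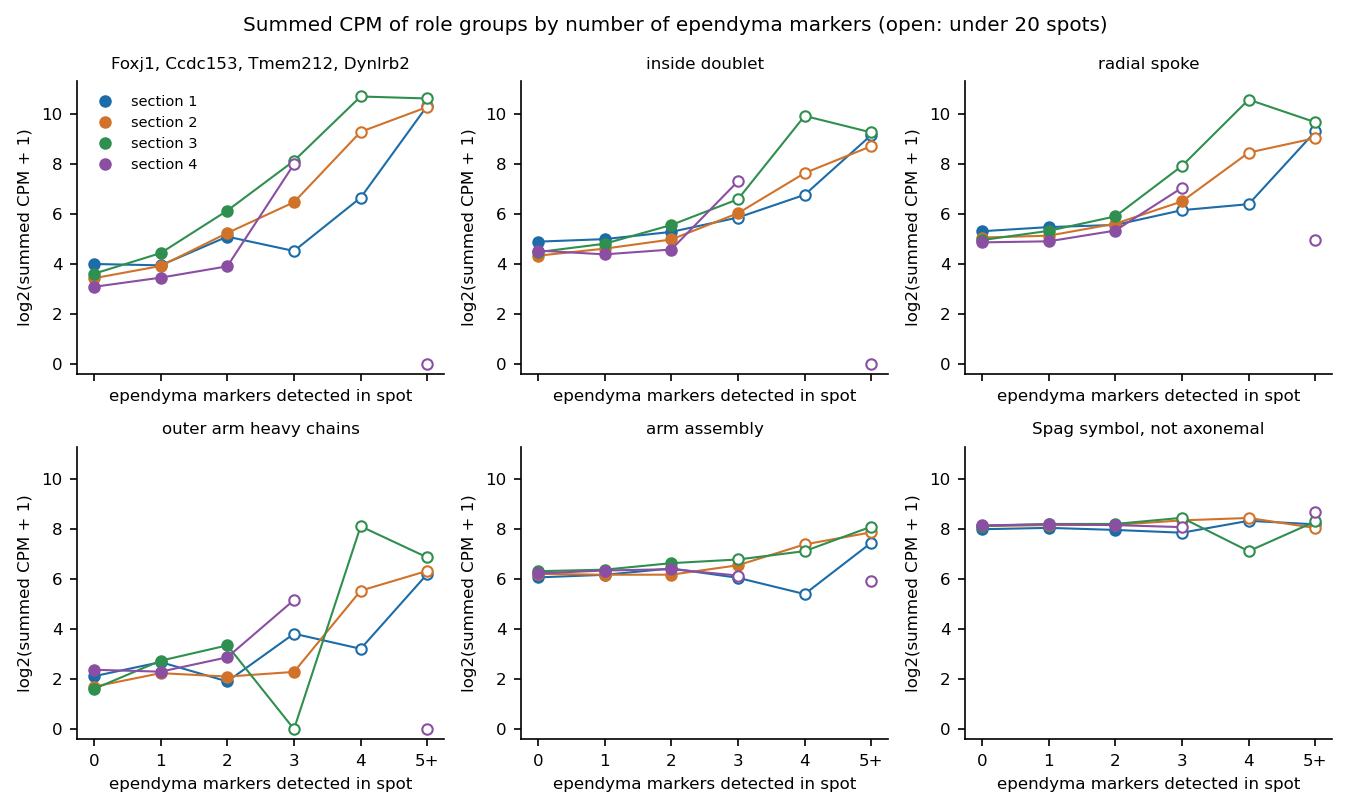
Summed level of 6 groups of members as log2(summed CPM + 1) against the number of ependyma markers detected in a spot, 1 line per section, open points where a bin held under 20 spots. The single genes, the doublet proteins and the radial spokes end higher at 5 or more markers than at 0 in sections 1 to 3, the assembly factors rise less, and the Spag genes outside the axoneme vary over a narrow range, with a dip at 4 markers in section 3; the last bin of section 4 is 1 spot.

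The share of a gene's UMIs held by each kind of spot was taken over whole sections. Ependymal-marker spots held 0.769 to 2.11% of all UMIs and choroid plexus-marker spots 0.223 to 14.2%. Tmem212 had 13.9, 49.5, 46.6 and 10.8% of its UMIs in ependymal-marker spots of sections 1 to 4 and 57.6, 0.455, 6.16 and 47.7% in choroid plexus-marker spots. Foxj1 had 4.74, 34.4, 25.2 and 5.88% in the former and 57.7, 0, 7.09 and 42.2% in the latter. The sections with much choroid plexus thus differed from the others in which kind of spot held these UMIs. Spots that met both rules count as choroid plexus-marker spots here, 68 of 189 in section 1 and 18 of 76 in section 4. The difference in shares therefore depends on that assignment too. Even so, other spots held 41.8% ± 9.57 of Tmem212 and 55.7% ± 14.0 of Foxj1 (SD, n = 4), against 94.6% ± 6.30 of Spag9. Over the 76 members this share ran from 35.7 to 95.02%, and for 14 of them it was below 50%, beside 94.1% ± 6.80 of all UMIs. How many of all genes lay below 50% was not counted. The lowest share, of Cfap53, is a mean over sections with 18, 6, 7 and 1 UMIs. Spag17 and Dnah12 had 3 UMIs each in section 4, so the low end rests partly on very few UMIs.

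**Figure D5:**
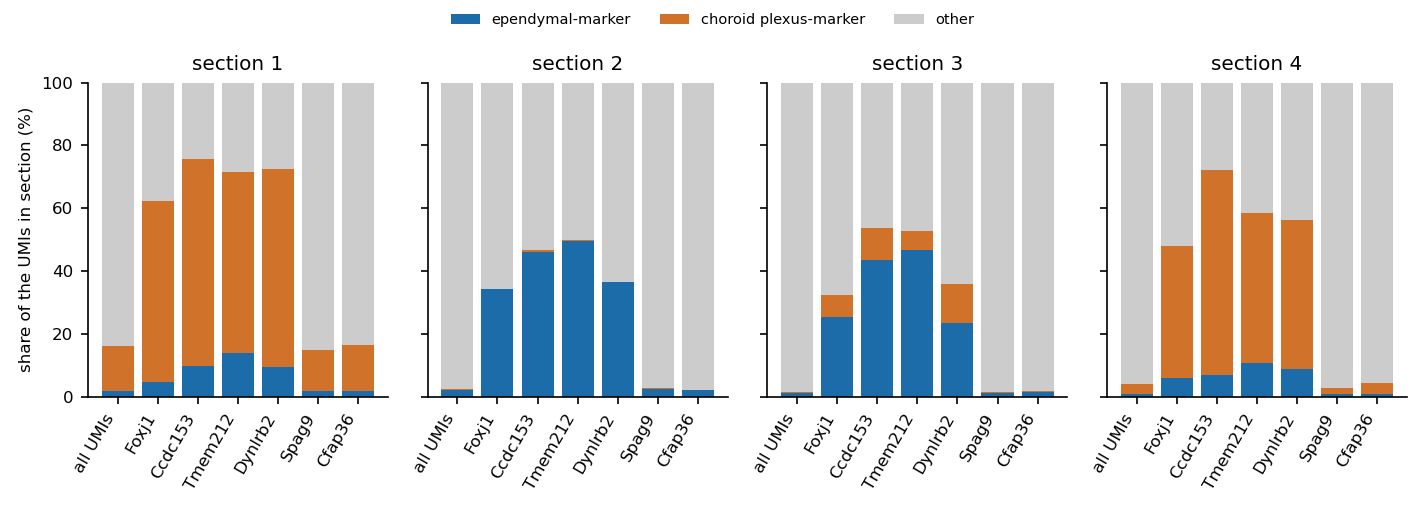
Share of UMIs (%) in ependymal-marker, choroid plexus-marker and other spots for all genes and for 6 members, 1 panel per section. Spots that met both marker rules are counted as choroid plexus-marker spots. The bars of Foxj1, Ccdc153, Tmem212 and Dynlrb2 show large ependymal-marker shares in sections 2 and 3 and large choroid plexus-marker shares in sections 1 and 4, while Spag9 and Cfap36 follow the bar of all UMIs.

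To see where the remaining UMIs lay, the other spots were divided into the 20% with the highest oligodendrocyte marker score, that is, the spots richest in RNA of the myelin-forming cells, and the rest. Of 53 members tested, 4 were higher there and 2 lower (edgeR, adjusted p under 0.05), beside 12.3% of genes that were higher and 11.4% that were lower. DESeq2 called 4 higher and 0 lower. Because there were so few, all are named, after their values were seen. Dnah14 stood at 5.05, 3.27, 7.45 and 5.46 CPM in the oligodendrocyte-marker-high spots of sections 1 to 4 and at 1.71, 0.691, 0.894 and 1.09 CPM in the rest, without overlap (2.29 ± 0.30, edgeR, adjusted p = 1.2e-05). Foxj1 stood at 9.38, 3.97, 8.20 and 10.9 CPM against 4.07, 2.83, 3.37 and 1.88 CPM (1.33 ± 0.26, adjusted p = 0.000916). Cfap126 (1.22 ± 0.30) and Ccdc153 (1.07 ± 0.35) were also higher, and Spag6 (-1.66 ± 0.43) and Spag5 (-0.79 ± 0.26) lower. Dnah14, Cfap126, Ccdc153 and Spag6 passed the filter on low counts only with the help of the group in which they were higher. Their calls therefore carry no weight as evidence. Foxj1 and Spag5 passed it in either group alone. The 10 ependyma markers summed to 44.4, 22.0, 27.2 and 31.3 CPM in the same spots and to 29.15, 24.7, 26.6 and 22.9 CPM in the rest, and 1 of the 5 tested was higher. The choroid plexus markers summed to 67.8, 13.6, 21.2 and 64.1 CPM against 53.0, 15.3, 15.6 and 25.5 CPM, and 2 of the 8 tested were higher. Of 8 markers each, 6 astrocyte and 7 microglia markers were higher and 7 neuron markers lower. The part of these cells in the higher values of Foxj1, Cfap126 and Ccdc153 was not tested. Dnah14, with the largest difference among the members here, had no resolved change in ependymal-marker spots.

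Cilium genes outside the symbol rule were compared by lists of the same roles. In ependymal-marker spots, 7 of 12 docking and other arm genes rose, 4 of 7 other assembly factors, 8 of 12 ruler, nexin and spoke genes, 6 of 8 central pair genes and 5 of 8 doublet genes, and none fell. Over all 13553 genes tested, 4.66% rose. For these lists and those that follow, how many genes passed the filter on low counts in other spots alone was not counted. A call of a gene that passed it only through marker-spot sums would carry no weight as evidence. Dnali1, an inner arm light chain, differed by 5.18 ± 0.43 and Hydin, of the central pair, by 4.41 ± 0.85 (log2, edgeR). Of 13 regulators of multiciliation tested, 4 rose, namely Ccdc78 (4.85 ± 0.72), Myb (4.81 ± 0.89), Trp73 (3.80 ± 0.75) and Rfx2 (2.30 ± 0.62). Genes of intraflagellar transport and the BBSome, which serve primary cilia as well, were close to level: 2 of 26 (Ift43 and Ift80) and 0 of 9 rose, with medians of 0.36 and 0.29 beside -0.02 for all genes. In choroid plexus-marker spots the counts were 6 of 12, 3 of 7, 9 of 12, 6 of 8, 5 of 8, 5 of 13, 2 of 26 and 0 of 9 in the same order, beside 5.73% of all genes.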

How the data were processed

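Raw UMI counts per gene and spot, with no normalization, were deposited by the authors for 4 sections after Space Ranger 1.3.1, per the file headers; build mm10 comes from the submitters' processing notes. Spots with at least 500 UMIs were kept (48 spots left out). The members, marker lists and tests were chosen with earlier results of these data known. Named members were Foxj1, Ccdc153, Tmem212, Dynlrb2, the 3 with most UMIs in each role list, widespread members and those with extreme fold changes; any other member was named after its values were seen. The UMIs of each spot group were added up within each section and compared with edgeR 4.0.16 (R 4.3.3, TMM, filterByExpr, section as a block, Benjamini-Hochberg over all genes tested). Groups of 1 section share its tissue and are thereby paired (correlations of deviations 0.0229 to 0.211). SE was derived from the fold change and F statistic of edgeR's test, which gives none itself. The intervals were built from that SE, so both are approximate, and the widespread class rests on them. CPM is scaled to 1000000 UMIs of the group. DESeq2 1.42.0 was an alternative. On simulated counts for 13573 genes, 79 of 200 genes with a log2 change of 1, and 147 of 200 with 2, were recovered in the ependymal comparison. The study's own region outlines were not used here. Where sections are not from separate mice, p-values measure only the spread between sections. Spots are small regions, not cells; 427 to 1989 barcodes recurred between sections because slides share one barcode set. Other settings tried were marker thresholds, depth-matched spots, total-UMI scaling, no filter, no block and leaving out each section.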

Additional observations from a re-analysis of the deposited data

Results flagged for a closer look

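Over the 4 sections, the level of 1 of the 76 members in other spots had a section far from the remaining ones, where chance alone would give about 3.8 (1 in 20). Cfap97d2 stood at 1.47 CPM in section 1, on 29 UMIs, and at 0.941 to 1.03 CPM in the other sections, a gap of 0.839 of the whole range.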

How the results depend on the processing

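The 50 members called higher in ependymal-marker spots became 27 of 65 with at least 2 markers, 17 of 68 with Mia and Hdc alone, 15 of 76 without spots holding a choroid plexus marker (7 of 19 with small sums kept), 33 of 44 with depth-matched other spots, 33 of 45 with other spots of 0 ependyma markers, 25 of 32 with sums of under 20 spots kept and 25 of 30 with at least 5 markers and small sums kept. Small sums raise the CPM minimum, so fewer members are tested. Mia and Hdc alone drew on sections 1, 2 and 4, and at least 2 ependyma markers on all 4 sections. Leaving out 1 section gave 28 to 51, the 28 without section 2 and 31 without section 3, and all called members that could be tested stayed higher. At least 5 markers without small sums left no ependymal sum and gave no value. The 41 members called in choroid plexus-marker spots became 2 of 65 without spots meeting the ependyma rule, 2 of 68 with spots meeting both rules counted as ependymal, 0 of 45 with 0 ependyma markers, 24 of 32 with small sums kept, 21 of 30 with at least 5 ependyma markers and small sums kept and 11 of 19 without any choroid plexus marker in ependymal sums and small sums kept (33 to 40 without 1 section; without section 1 or 4 the choroid plexus sum stands alone and is assumed to vary like the other groups). The 0 members in the direct comparison became 3 with at least 2 ependyma markers (Dynlrb2, Cfap52 and Foxj1, lower in ependymal-marker spots), 8 with spots meeting both rules counted as ependymal, 4 with 0 ependyma markers, 1 with at least 5 markers and small sums kept and 1 with no filter (Tmem212), and 0 to 1 without 1 section. Without the replicate block, that is, sections not paired, the calls were 48, 46 and 0, and the 4 in oligodendrocyte-marker-high spots became 2, Dnah14 and Foxj1 (3 to 6 without 1 section). The mean share of Foxj1, Ccdc153, Tmem212 and Dynlrb2 was 23.5% in ependymal-marker and 30.3% in choroid plexus-marker spots, 17.4 to 28.6% and 19.99 to 40.3% without 1 section. The ependymal share became 14.7% with at least 2 choroid plexus markers and 15.8% with at least 5 ependyma markers, and the choroid plexus share 42.7% with at least 2 and 21.8% with at least 5 choroid plexus markers. Other causes of these shifts were not tested. Counting of spots meeting both rules as ependymal, 0 ependyma markers and the small-sum variants of the marker rules were chosen after seeing the data.

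Fold changes near 0 in ependymal-marker spots turned sign, none of them called. Cfap36 was 0.069 with at least 2 ependyma markers, 0.015 with at least 2 choroid plexus markers and 0.14 with both-rule spots as ependymal. With small sums kept it was 0.030, and 0.19 where at least 5 ependyma markers were also asked for. With no choroid plexus marker it was 0.12 with small sums kept and -0.20 without them. Total-UMI scaling gave 0.091 for Cfap36 (-0.17 to 0.025 without 1 section). Cfap410 was 0.15 with at least 2 ependyma markers, 0.064 and 0.020 with at least 2 and 5 choroid plexus markers, 0.16 with both-rule spots as ependymal, 0.036 with 0 ependyma markers, 0.34 with at least 5 and 0.062 with total-UMI scaling (-0.27 to 0.12 without 1 section). Spag9 was 0.060 without any choroid plexus marker, 0.12 with depth-matched spots, 0.0055 with 0 ependyma markers, 0.023 with small sums kept, 0.10 with at least 5 markers, 0.092 with no choroid plexus marker and small sums, and 0.074 with total-UMI scaling. Spag7 was 0.066 without any choroid plexus marker, 0.052 with at least 2 such markers, 0.20 with depth-matched spots, 0.040 with small sums kept and 0.10 with total-UMI scaling. Cfap97 was 0.015 with at least 2 ependyma markers, 0.025 with Mia and Hdc alone and 0.12 with depth-matched spots. Dnaaf2 was -0.017 and Spag1 -0.12 with at least 2 ependyma markers. Without 1 section Cfap298 ran from -0.084 to 0.48 and Tekt5 from -1.26 to 0.11. Depth limits the members with few UMIs in ependymal-marker spots, whose intervals are wide.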
